A study of Mus musculus with 6 samples.

Results

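Transcripts of 9 genes that follow temperature were examined, namely 7 heat shock genes (*Hspa1a*, *Hspa1b*, *Hspa8*, *Dnajb1*, *Hsph1*, *Hsp90aa1* and *Hspb1*) and 2 cold-inducible genes (*Cirbp* and *Rbm3*), in inguinal white adipose tissue (iWAT) of Thra mutant and wild type (Wt) mice. The members were taken by their symbols from the 55573 genes listed in both tables, and each of the 9 symbols was found once in each. RNA-seq was done on 3 Wt and 3 mutant mice, with 1 library per mouse. All 6 were C57BL/6NTac males, 3 months old, kept on a regular chow diet without any treatment. The mutants were homozygous for a knock-in that changes 2 lysines, K283Q/K288R, that are sumoylation sites of thyroid hormone receptor alpha. The knock-in is present in every cell of the animal, so that the tissue gives the sum of effects inside and outside the fat depot, and the controls were Wt mice bred in the same facility. Gene totals do not show which allele a library carries. No time of day, ambient temperature or body temperature is stated in the labels used here.

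Heat shock proteins are chaperones that bind unfolded proteins. Heat, proteotoxic stress and the daily rise of body temperature activate the transcription factor HSF1, which binds inverted repeats of the unit nGAAn in the promoters of their genes. *Cirbp* and *Rbm3* encode glycine-rich RNA-binding proteins whose transcripts move in the opposite direction, being more abundant under mild cooling and at the cool phase of the daily temperature cycle, and CIRBP is known to affect the amplitude of circadian gene expression. Thyroid hormone is a regulator of heat production, and beige adipocytes in iWAT contribute to it.

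Between 19607423 and 24228381 reads were assigned to genes in each mouse. Values are CPM after the scaling factors of the authors, called normalized CPM here, and 3 reads correspond to 0.126 to 0.157 normalized CPM. The 8 adipocyte markers together reached 19400 to 27740 normalized CPM in Wt and 15010 to 23520 in mutant mice, and none of them passed the test. The marker sums of other cell types were unequal between the mice. The sum of 8 lymphocyte markers was 323, 680 and 782 in the Wt animals numbered 1, 2 and 3, against 6.39, 420 and 634 for the mutants of those numbers. The sum of 12 skeletal muscle markers was 13270 to 28300 in Wt and 21510 to 33710 in mutant mice, with 1 marker, *Myh1*, higher past the test. Of 8 mesothelial markers 6 were higher in the mutants, with sums of 4.81 to 32.9 in Wt and 37.7 to 77.2 in mutant mice. Of the markers of endothelium, epithelium, smooth muscle and macrophages, 1 macrophage marker passed the test and was lower. The sum of 6 smooth muscle and pericyte markers was 792 to 1153 in Wt and 1316 to 1443 in mutant mice, without overlap. That of 7 epithelial markers was 77.4, 5.64 and 10.8 in Wt and 8.23, 23.1 and 3.88 in mutant mice. The sums of endothelium and macrophages overlapped. None of the markers was at 0 in every mouse. In bulk tissue, fewer cells of a type and less RNA per cell cannot be told apart.

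The promoters of the heat shock members are shown because they carry the sequences to which HSF1 binds, and that of *Cirbp* as the contrast. RefSeq promoter windows on GRCm38.p6, from 250 bases before to 50 bases after the gene start, were found for 6 of the 9 members (9 windows in all), and *Hsp90aa1*, *Hspa8* and *Rbm3* had no entry. Capitals mark pairs of heat shock units, spelled GAANNTTC or TTCNNGAA, and the octamer TCCCCGCC, which was described in the *Cirbp* promoter as a mild cold response element, each on either strand. The windows are those of *Hspa1a* (chr17:34972107-34972406, minus strand), *Hspa1b* (chr17:34959189-34959488, minus strand), the first start of *Hsph1* (chr5:149636287-149636586, minus strand), *Hspb1* (chr5:135887669-135887968, plus strand) and the first start of *Cirbp* (chr10:80167589-80167888, plus strand).
Hspa1a: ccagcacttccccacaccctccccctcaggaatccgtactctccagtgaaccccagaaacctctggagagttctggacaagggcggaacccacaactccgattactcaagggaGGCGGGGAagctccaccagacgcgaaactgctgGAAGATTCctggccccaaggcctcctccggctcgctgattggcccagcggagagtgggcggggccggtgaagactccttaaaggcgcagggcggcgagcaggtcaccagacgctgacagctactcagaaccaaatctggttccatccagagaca
Hspa1b: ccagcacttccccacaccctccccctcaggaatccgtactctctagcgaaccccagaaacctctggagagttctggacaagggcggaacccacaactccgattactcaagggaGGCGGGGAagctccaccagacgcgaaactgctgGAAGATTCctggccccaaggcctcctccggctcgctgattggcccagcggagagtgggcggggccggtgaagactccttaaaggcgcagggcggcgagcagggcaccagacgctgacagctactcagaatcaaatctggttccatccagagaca
Hsph1: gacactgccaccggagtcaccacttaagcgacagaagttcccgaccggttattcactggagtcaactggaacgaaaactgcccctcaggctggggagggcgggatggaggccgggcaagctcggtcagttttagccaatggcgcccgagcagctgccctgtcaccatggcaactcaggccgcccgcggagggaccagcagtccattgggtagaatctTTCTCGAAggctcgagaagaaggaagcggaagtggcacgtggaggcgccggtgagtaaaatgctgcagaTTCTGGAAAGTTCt
Hspb1: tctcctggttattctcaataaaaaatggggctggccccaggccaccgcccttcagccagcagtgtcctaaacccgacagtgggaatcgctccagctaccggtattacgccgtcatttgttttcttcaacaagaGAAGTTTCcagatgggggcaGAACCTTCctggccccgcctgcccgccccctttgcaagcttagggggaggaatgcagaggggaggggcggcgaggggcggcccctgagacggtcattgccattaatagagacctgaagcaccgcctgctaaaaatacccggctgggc
Cirbp: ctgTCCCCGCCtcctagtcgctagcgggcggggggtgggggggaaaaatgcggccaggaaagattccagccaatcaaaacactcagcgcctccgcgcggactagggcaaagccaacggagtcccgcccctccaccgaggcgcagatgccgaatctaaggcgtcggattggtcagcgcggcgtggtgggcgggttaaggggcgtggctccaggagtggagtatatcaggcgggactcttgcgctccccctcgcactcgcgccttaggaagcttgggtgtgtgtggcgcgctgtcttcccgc

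A pair of heat shock units was found in the windows of 4 of the 6 members, *Hspa1a*, *Hspa1b*, *Hsph1* and *Hspb1*, against 15.056% of the 32851 promoters of the mouse. That share counts single promoters, whereas a member was counted if any of its windows held a pair. *Hspa1a* and *Hspa1b*, with nearly the same window, are not separate cases. The pair lay 104 to 97 bases before the start in both *Hspa1a* and *Hspa1b*. *Hspb1* had 2 copies, 117 to 110 and 97 to 90 bases before the start. *Hsph1* alone had 3 units in a row, TTCNNGAANNTTC, 36 to 48 bases after its first start, which 0.603% of all promoters hold, and a separate pair 33 to 26 bases before it. The pairs overlap the longer motif where both are present. No pair was found in these windows of *Dnajb1* and *Cirbp*. The octamer TCCCCGCC, found in 5.382% of all promoters, lay 247 to 240 bases before the first start of *Cirbp*. It was also present in *Hspa1a* and *Hspa1b*, on the other strand at 137 to 130 bases before the start, and 34 to 41 bases after the second start of *Dnajb1*. The windows of *Hspa1a* and *Hspa1b* differed at 4 of 300 bases (98.7% identical). A match of letters is a description of the sequence and does not show binding in iWAT.

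**Figure D1:**
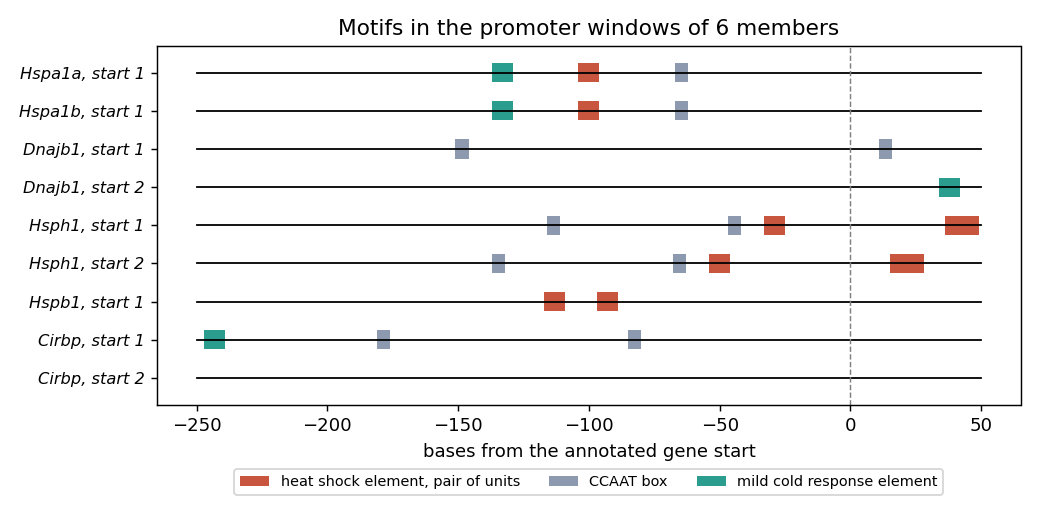
Positions of the motifs in the 9 promoter windows of 6 members, in bases from the annotated gene start (dashed line). Red boxes are pairs of heat shock units, green boxes the mild cold response element and grey boxes the CCAAT box, which 37.408% of all promoters hold. *Hspa1a* and *Hspa1b* carry the same arrangement, and *Hspb1* has 2 pairs close to each other.

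Per kilobase of exon, the constitutive chaperone gene *Hspa8* had the highest level of the 9, 39.7 ± 1.47 normalized CPM per kb over the 6 mice (mean ± SD, n = 6), and *Cirbp* followed with 24.5 ± 3.44. *Hspb1*, *Rbm3*, *Dnajb1* and *Hsp90aa1* came next with means of 11.4, 11.0, 11.0 and 9.35 normalized CPM per kb. Over the 6 mice the ranges of neighbours within these 4 overlapped, and their order differed by genotype. In Wt mice *Rbm3* had 11.23 to 14.98 and *Hspb1* 6.73 to 11.99 normalized CPM per kb, with overlap. In the mutants *Hspb1*, at 12.7 to 14.6, lay above *Hsp90aa1*, *Dnajb1* and *Rbm3*, the last at 7.12 to 9.69. *Hsph1* had 5.90 normalized CPM per kb. The 2 stress-inducible HSP70 genes were lowest, with 1.08 for *Hspa1b* and 0.844 for *Hspa1a*, and their ranges overlapped. These lengths are unions of all annotated exons in GENCODE M21, which differ from the transcripts present in the tissue.

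The question was whether the mutation changed these genes in iWAT. None of the 9 genes passed an FDR of 0.05 in the comparison of mutant and Wt mice by limma across 16868 genes, of which 8.11% passed. The edgeR quasi-likelihood test on the recovered reads called 0 of the 9 as well, and the DESeq2 Wald test called 1, *Rbm3*. At an unadjusted p under 0.05, limma gave 3 of 9, namely *Hspb1*, *Cirbp* and *Rbm3*, where 24.2% of all genes tested were under it. In 7 of the 9 genes the 3 mutant and 3 Wt mice did not overlap, against 30.6% of all genes tested. The mutants were above every Wt mouse in 3 genes (*Hspa1a*, *Hsp90aa1* and *Hspb1*; 14.9% of all genes) and below every Wt mouse in 4 (*Dnajb1*, *Hspa8*, *Cirbp* and *Rbm3*; 15.7% of all genes). The heat shock genes thus lay on both sides, while both cold-inducible genes were lower in all mutants. The median log2 fold change was 0.10 over the 7 heat shock genes, -0.48 over the 2 cold-inducible genes and -0.05 over all genes tested. For a single gene, the smallest two-sided p of an exact permutation test over these 6 mice is 0.1, which each of the 7 reached.

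**Figure D2:**
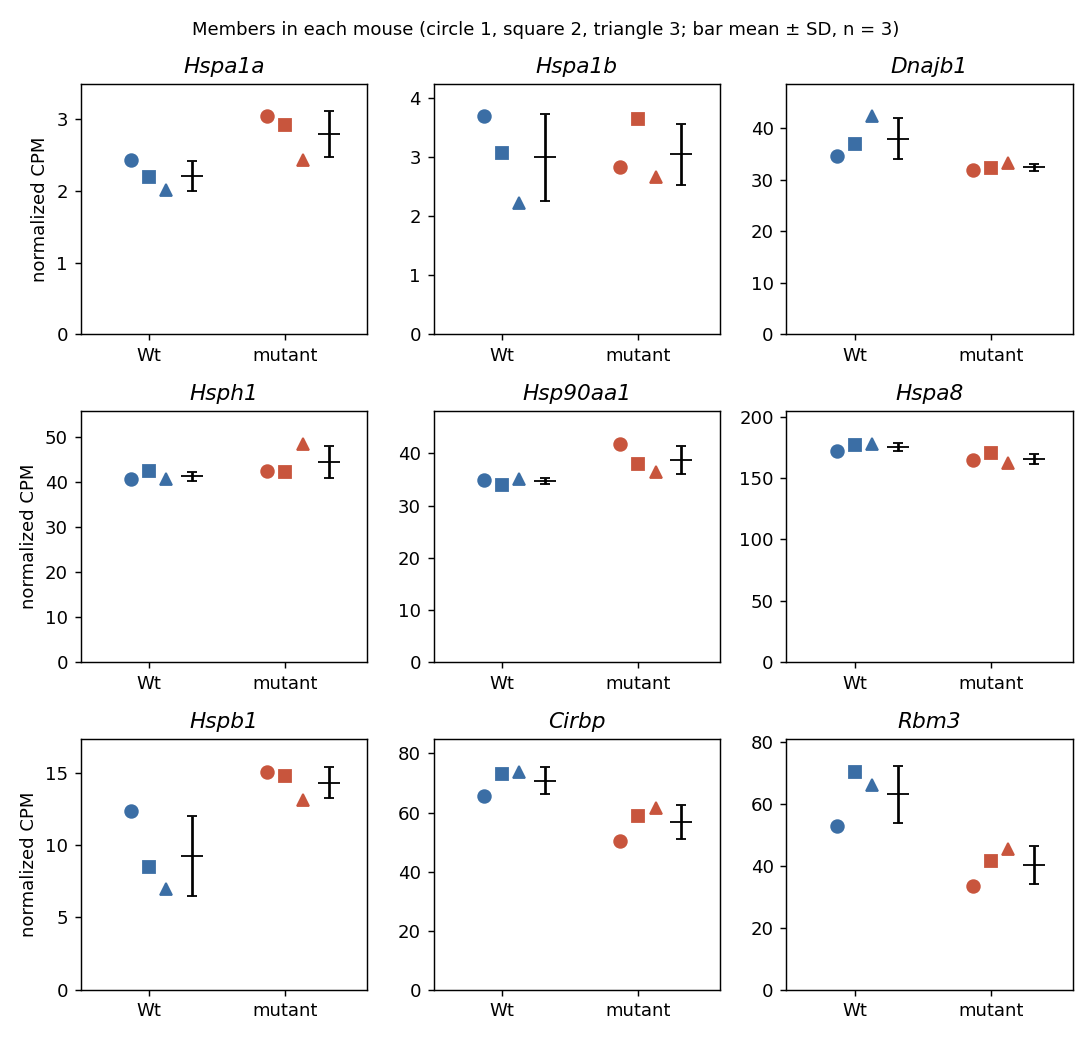
Normalized CPM of each member in every mouse, with blue for Wt, red for mutant, circles, squares and triangles for mice 1, 2 and 3 of each genotype, and bars for the mean ± SD (n = 3). *Cirbp* and *Rbm3* are lower in every mutant than in every Wt mouse, *Hspb1* is higher, and *Hspa1b* and *Hsph1* overlap.

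*Hspa1a* and *Hspa1b* encode the stress-inducible HSP70 proteins and are nearly silent in unstressed tissue. *Hspa1a* (ENSMUSG00000091971; chr17:34969190-34972156, minus strand, a single exon) measured 2.43, 2.19 and 2.02 normalized CPM in the 3 Wt animals, by number, and 3.04, 2.92 and 2.43 in the mutants, from 45 to 65 reads. The mutants were above the Wt mice, but the lowest mutant, at 2.433, exceeded the highest Wt mouse, at 2.430, by less than the value of 1 read. The log2 fold change was 0.28 with an SE of 0.15 (95% interval -0.08 to 0.64, adjusted p = 0.313 by limma). *Hspa1b* (ENSMUSG00000090877; chr17:34956436-34959238, minus strand, a single exon) measured 3.69, 3.06 and 2.23 in Wt and 2.83, 3.64 and 2.67 normalized CPM in mutant mice. Here the genotypes overlapped completely, with a log2 fold change of 0.03 and an SE of 0.21 (95% interval -0.47 to 0.54, adjusted p = 0.931 by limma). Its sign turned without Wt mouse 3 (-0.13) and without mutant mouse 2 (-0.08), so that no direction can be given for it.

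Both genes are near-identical copies. Of the 50-base windows of the *Hspa1b* transcripts 62.3% also occur in *Hspa1a*, and reads from these windows cannot be assigned to 1 copy by sequence. The values of both were therefore added. The sum was 6.12, 5.25 and 4.25 normalized CPM in Wt and 5.87, 6.55 and 5.10 in the mutants, with overlapping genotypes and a log2 fold change of 0.16 (SE 0.17, 95% interval -0.26 to 0.58, adjusted p = 0.592 by limma). In every mouse 48.2 to 60.3% of the sum was on *Hspa1b*. The gene model *Gm20481* on the opposite strand shares 564 exonic bases, 19.0% of *Hspa1a*, and was at 0 in the Wt mice and at a mean of 0.215 normalized CPM in the mutants.

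*Hspa8* (ENSMUSG00000015656; chr9:40800984-40810087, plus strand) encodes HSC70, the constitutive member of the HSP70 family. It measured 172, 177 and 178 normalized CPM in Wt and 165, 170 and 162 in mutant mice. Every mutant was below every Wt mouse, by a narrow margin. The mutant mean was 0.944 of the Wt mean, with a log2 fold change of -0.08 (SE 0.07, 95% interval -0.25 to 0.08, adjusted p = 0.486 by limma). The values rest on 3143 to 4229 reads per mouse. Of the 50-base windows of *Hspa8* 39.4% also occur in other genes, mainly the gene model *Gm15459*, which had a mean of 0.196 normalized CPM.

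The co-chaperones *Dnajb1* and *Hsph1* act on HSP70 and lay on opposite sides. *Dnajb1* (ENSMUSG00000005483; chr8:83608193-83612653, plus strand) encodes HSP40, which delivers clients to HSP70 and stimulates its ATPase. It measured 34.5, 37.0 and 42.2 normalized CPM in Wt and 31.8, 32.3 and 33.1 in mutant mice. The mutants were all lower and close to each other, while the Wt mice spread more widely (SD of 3.94 in Wt and 0.670 in mutant mice). The log2 fold change was -0.22 (SE 0.10, 95% interval -0.45 to 0.01, adjusted p = 0.229 by limma). *Hsph1* (ENSMUSG00000029657; chr5:149614287-149636376, minus strand) encodes HSP105, a nucleotide exchange factor of HSP70 and the member with 3 heat shock units in a row. It measured 40.8, 42.5 and 40.7 in Wt and 42.5, 42.3 and 48.5 normalized CPM in mutant mice. Only mutant mouse 3 stood above the others, and the log2 fold change was 0.10 (SE 0.08, 95% interval -0.10 to 0.30, adjusted p = 0.490 by limma).

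*Hsp90aa1* (ENSMUSG00000021270; chr12:110690605-110702728, minus strand) encodes the inducible HSP90 alpha, which folds kinases and steroid receptors and holds HSF1 inactive. It measured 34.9, 34.0 and 35.2 normalized CPM in Wt and 41.8, 38.0 and 36.5 in mutant mice. The Wt mice were nearly equal and all mutants were above them, most of all mutant mouse 1. The log2 fold change was 0.16 (SE 0.08, 95% interval -0.04 to 0.35, adjusted p = 0.303 by limma). Of its 50-base windows 47.5% also occur in other genes, mainly the pseudogene *Gm12346*, which had a mean of 0.279 normalized CPM.

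*Hspb1* (ENSMUSG00000004951; chr5:135887919-135889563, plus strand) encodes the small heat shock protein HSP25, which holds unfolded proteins without ATP, protects actin filaments and is abundant in muscle. It measured 12.4, 8.46 and 6.94 normalized CPM in Wt and 15.1, 14.8 and 13.1 in mutant mice. The mutants were all higher and close together, and Wt mouse 1 came nearest to them. *Hspb1* had the largest fold change of the 7 heat shock genes, with a mutant mean 1.55 times the Wt mean and a log2 fold change of 0.64 (SE 0.21, 95% interval 0.13 to 1.14, unadjusted p = 0.0207 and adjusted p = 0.126 by limma). Without Wt mouse 1 it passed the threshold, with a log2 fold change of 0.86 and an adjusted p of 0.0377 by limma, and over all alternatives the adjusted p ranged from 0.0219 to 0.303. The 12 skeletal muscle markers summed to 28300, 25690 and 13270 normalized CPM in the Wt animals and to 33710, 21510 and 33540 in the mutants, with overlapping genotypes. Of these markers 6 were above all Wt mice in every mutant (median log2 fold change of the 12, 0.85), among them the slow-fibre myosin gene *Myh7* with 2.47, 150 and 35.8 normalized CPM in Wt against 444, 303 and 422. Wt mouse 1 had the most *Hspb1* of the Wt mice, the largest muscle sum and the least *Myh7*. The 6 smooth muscle and pericyte markers summed to 1153, 1046 and 792 normalized CPM in Wt and to 1443, 1316 and 1374 in mutant mice, without overlap. The part of skeletal or smooth muscle in the result was not tested. Of the 50-base windows of *Hspb1* 50.1% also occur in other genes, mainly the pseudogene *Hsp25-ps1*, which was at 0.117 normalized CPM.

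*Cirbp* (ENSMUSG00000045193; chr10:80165985-80172786, plus strand) measured 65.4, 73.0 and 73.9 normalized CPM in Wt and 50.3, 58.9 and 61.4 in mutant mice. All mutants were below all Wt mice, and mouse 1 was the lowest of each genotype. The mutant mean was 0.803 of the Wt mean, with a log2 fold change of -0.32 (SE 0.10, 95% interval -0.56 to -0.07, unadjusted p = 0.0196 and adjusted p = 0.122 by limma). None of its 50-base windows occurs in another gene, so that no copy shares its reads.

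*Rbm3* (ENSMUSG00000031167; chrX:8138975-8145880, minus strand) had a fold change as large as that of *Hspb1*, in the other direction. It measured 52.7, 70.4 and 65.9 normalized CPM in Wt and 33.4, 41.5 and 45.5 in mutant mice. The highest mutant was below the lowest Wt mouse. The mutant mean was 0.637 of the Wt mean (40.2 ± 6.16 against 63.0 ± 9.16 normalized CPM, SD, n = 3), with a log2 fold change of -0.64 (SE 0.16, 95% interval -1.02 to -0.27, unadjusted p = 0.00514). The adjusted p was 0.0572 by limma and 0.0587 by the edgeR quasi-likelihood test, both above the threshold, and 0.0085 by the DESeq2 Wald test, within a range of 0.00754 to 0.187 over all alternatives. The antisense gene *Rbm3os* overlaps 94 exonic bases and had a mean of 0.640 normalized CPM. Of the 50-base windows of *Rbm3* 9.71% also occur in other genes, mainly *Rbm3-ps*, which had a mean of 0.059 normalized CPM.

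The 2 cold-inducible genes moved together over the 6 mice (Pearson r = 0.987 on the log2 scale, a description over 6 mice that share the difference between genotypes). The ratio of *Rbm3* to *Cirbp* was 0.806, 0.964 and 0.892 in Wt and 0.665, 0.705 and 0.742 in mutant mice. It was thus lower in every mutant, as *Rbm3* differed more than *Cirbp*. The markers of lymphocytes followed a similar order within each genotype, since mouse 1 had the lowest sum among the Wt mice (323) and among the mutants (6.39). In the closest pair of sums, Wt mouse 2 had 70.4 normalized CPM of *Rbm3* at a lymphocyte sum of 680, and mutant mouse 3 had 45.5 at 634. The part of lymphocytes in the result was not tested. With both mice numbered 1 left out, an alternative chosen after seeing the data that leaves 2 mice per genotype, the log2 fold change of *Rbm3* was -0.64 (adjusted p = 0.00983 by limma) and that of *Cirbp* was -0.29 (adjusted p = 0.0734 by limma).

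**Figure D3:**
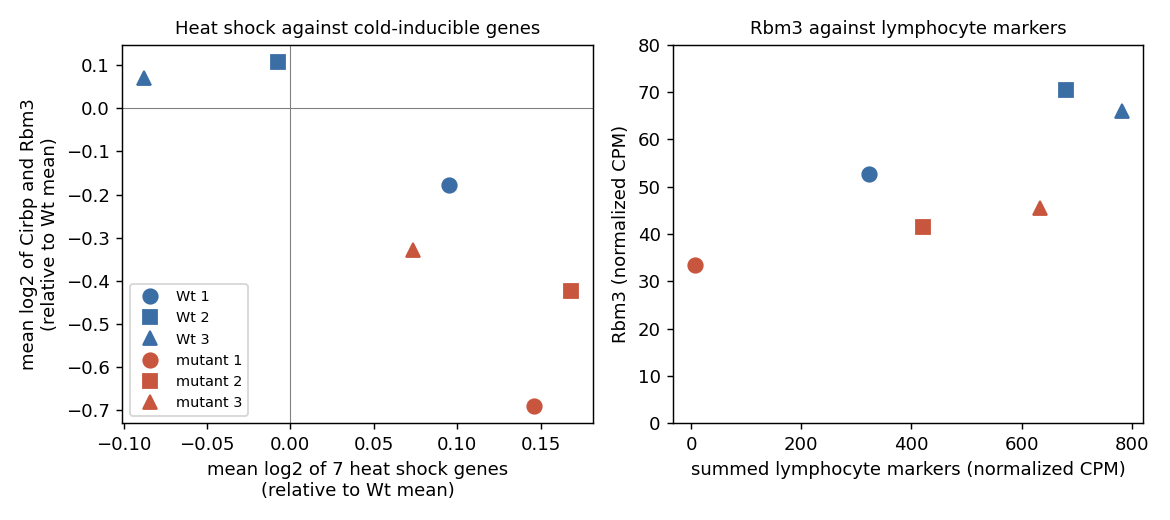
Left, the mean log2 value of *Cirbp* and *Rbm3* (vertical) against that of the 7 heat shock genes (horizontal) in each mouse, relative to the Wt mean, and right, *Rbm3* (vertical) against the sum of 8 lymphocyte markers (horizontal), both in normalized CPM. Blue is Wt, red is mutant, and the 3 mutants lie below the 3 Wt mice on the vertical axis of both plots, while they overlap on the horizontal axes.

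Per mouse and relative to the Wt mean, the mean log2 value of the 7 heat shock genes was 0.10, -0.01 and -0.09 in Wt and 0.15, 0.17 and 0.07 in mutant mice. Wt mouse 1 was above mutant mouse 3, so the genotypes overlapped. The mean of *Cirbp* and *Rbm3* was -0.18, 0.11 and 0.07 in Wt and -0.69, -0.42 and -0.33 in mutant mice, without overlap. The ratio of *Hspa8* to *Rbm3* was 3.26, 2.51 and 2.70 in Wt and 4.93, 4.10 and 3.56 in mutant mice. That of *Hsp90aa1* to *Rbm3* was 0.662, 0.484 and 0.534 in Wt and 1.25, 0.916 and 0.802 in mutant mice. Such ratios compare the mice for 1 pair of genes and not the levels of the genes.

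**Figure D4:**
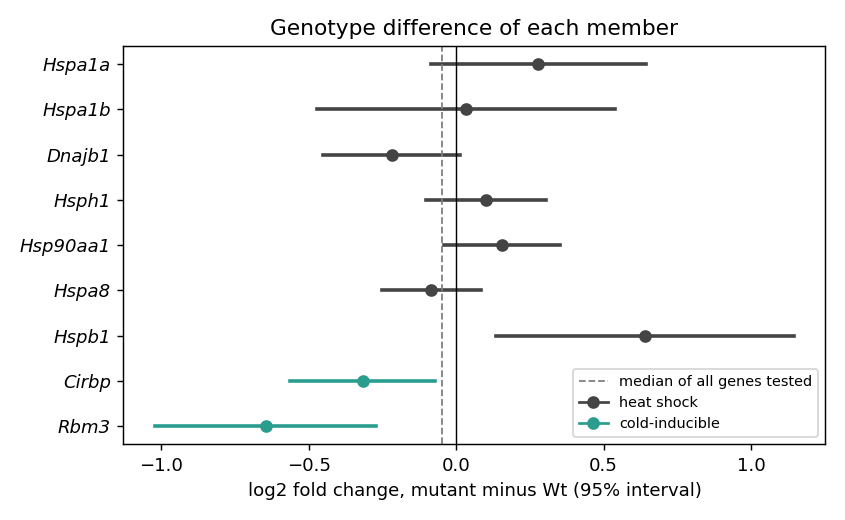
Log2 fold change of each member, mutant minus Wt, with its 95% interval from limma (n = 3 per genotype), heat shock genes in black and cold-inducible genes in green. The dashed line is the median of all genes tested, -0.05. The intervals of *Hspb1*, *Cirbp* and *Rbm3* do not include 0.

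Over the 6 mice, the heat shock genes did not form 1 pattern. *Hspa1a*, *Hsp90aa1* and *Hspb1*, the members higher in every mutant, varied together (r from 0.707 to 0.923). *Hspa1b*, the near-identical copy of *Hspa1a*, had r = 0.001 with *Hsp90aa1* and 0.564 with *Hspb1*. *Dnajb1* ran against *Hspb1* (r = -0.975). *Hspa1a*, *Hsp90aa1* and *Hspb1* ran against *Rbm3* (r = -0.937, -0.926 and -0.909), whereas *Dnajb1* and *Hspa8* ran with it (r = 0.848 and 0.825). *Hsph1* and *Hspa1b* had r = -0.280 and -0.236 with *Rbm3*. These values are descriptions over the same 6 libraries and hold the difference between genotypes. Among 10076 genes with a mean of at least 10 normalized CPM, those most like the mean of the 7 heat shock genes were *Asap2*, *Tgfb3*, *Jcad*, *Gjc1* and *Tmem184c* (r from 0.989 to 0.994), and 64 genes had an r above 0.95. Those most like the mean of *Cirbp* and *Rbm3* were *Zfp384*, *Edc4* and *Wbp11* (r from 0.996 to 0.997). For this pattern 483 genes had an r above 0.95, so that many genes ran alongside the cold-inducible pair in these mice.

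Most other heat-inducible chaperone genes did not pass the test. Of 21 further heat-inducible chaperone genes, 3 rose and none fell, with a median log2 fold change of 0.15, where 8.11% of all genes passed in either direction. Without any single mouse the count was 1 or 2. In 7 of the 21 all mutants were above all Wt mice, against 14.9% of all genes. In 0 of the 21 all mutants were below, against 15.7% of all genes. *Cryab*, which encodes alpha B-crystallin, a small heat shock protein that partners HSPB1 and is abundant in muscle, measured 132, 143 and 96.9 normalized CPM in Wt and 302, 259 and 252 in mutant mice. It rose in all mutants by a log2 fold change of 1.14 (SE 0.16, adjusted p = 0.0102 by limma), and passed under all 17 alternatives. Of the 12 skeletal muscle markers, 6 were also above all Wt mice in every mutant, and the part of muscle in the rise of *Cryab* was not tested. *Hspa1l*, an HSP70 gene known from testis, was at 1.09, 2.92 and 0.841 in Wt and 8.07, 5.39 and 7.02 in mutant mice (log2 fold change 1.90, SE 0.37, adjusted p = 0.0305 by limma). The gene model *Gm10501* overlaps 71.9% of its exonic bases on the opposite strand. *Ahsa2*, an activator of HSP90, had a log2 fold change of 0.41 (SE 0.09, adjusted p = 0.0468 by limma), and the calls of *Ahsa2* and *Hspa1l* were lost under 8 and 5 of the 17 alternatives. Of the exonic bases of *Ahsa2* 47.1% overlap *Usp34*, which had 3.35 times its level. Since the use of strand in counting is not given in the sources used here, reads of overlapping genes on opposite strands cannot be told apart.

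Among 10 tested genes for heat shock factors and their regulators, none rose and 1 fell, near the 8.11% of all genes that passed in either direction. At an unadjusted p under 0.05 limma gave 5 of the 10, against 24.2% of all genes. *Hspbp1*, a nucleotide exchange factor of HSP70, was at 20.1, 19.0 and 21.3 normalized CPM in Wt and fell to 15.5, 13.6 and 14.3 in mutant mice (log2 fold change -0.47, SE 0.10, adjusted p = 0.0393 by limma). Its adjusted p ranged from 0.00638 to 0.148 over the alternatives, and the call was lost under 9 of 17, namely without each single mouse, with both other filters and with scaling by library size only. Under that scaling 1 gene of the list, the HSP70 co-chaperone gene *Bag1*, named after its value was seen, was higher and none was lower. *Hsf1*, the main activator of the heat shock response, measured 38.1, 41.8 and 44.8 in Wt and 30.8, 30.5 and 34.4 in mutant mice. All mutants were lower, but the difference missed the threshold (log2 fold change -0.38, SE 0.10, adjusted p = 0.0669 by limma, 0.0182 to 0.208 over the alternatives). *Hsf2*, which forms trimers with HSF1, measured 17.7, 18.4 and 15.9 in Wt and 24.9, 21.4 and 19.6 in the mutants, with log2 fold change 0.33 (SE 0.12, adjusted p = 0.161 by limma).

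The other chaperone lists gave no calls by limma in the main comparison, or by edgeR. None of 15 endoplasmic reticulum chaperone genes, 8 TRiC chaperonin genes and 8 mitochondrial chaperone genes passed the test, with median log2 fold changes of -0.04, 0.11 and -0.05. At an unadjusted p under 0.05 limma gave 2, 1 and 2 of them, edgeR called 0 in each list, and DESeq2 called 1, 1 and 0. With a replicate block for mouse number, 4063 of the 16868 genes tested passed. That fit called 1 endoplasmic reticulum gene higher and 2 lower, 2 TRiC genes higher and 2 mitochondrial genes higher. In 6 of the 8 TRiC genes, whose products fold actin and tubulin, all mutants were above all Wt mice, against 14.9% of all genes. All mutants were below all Wt mice in 0 of the 8, against 15.7% of all genes. Of the 15 endoplasmic reticulum genes, 2 had all mutants above and 6 all mutants below. For the 8 mitochondrial genes these counts were 2 and 0. The 12 CLK kinase and SR protein genes, which take part in temperature-dependent splicing, gave no calls by limma, edgeR or DESeq2 either, and 2 had an unadjusted p under 0.05 by limma. All mutants were below all Wt mice in 3 of the 12, against 15.7% of all genes, and the median log2 fold change was -0.19. The fit with the replicate block called 5 of the 12 lower and 0 higher.

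**Figure D5:**
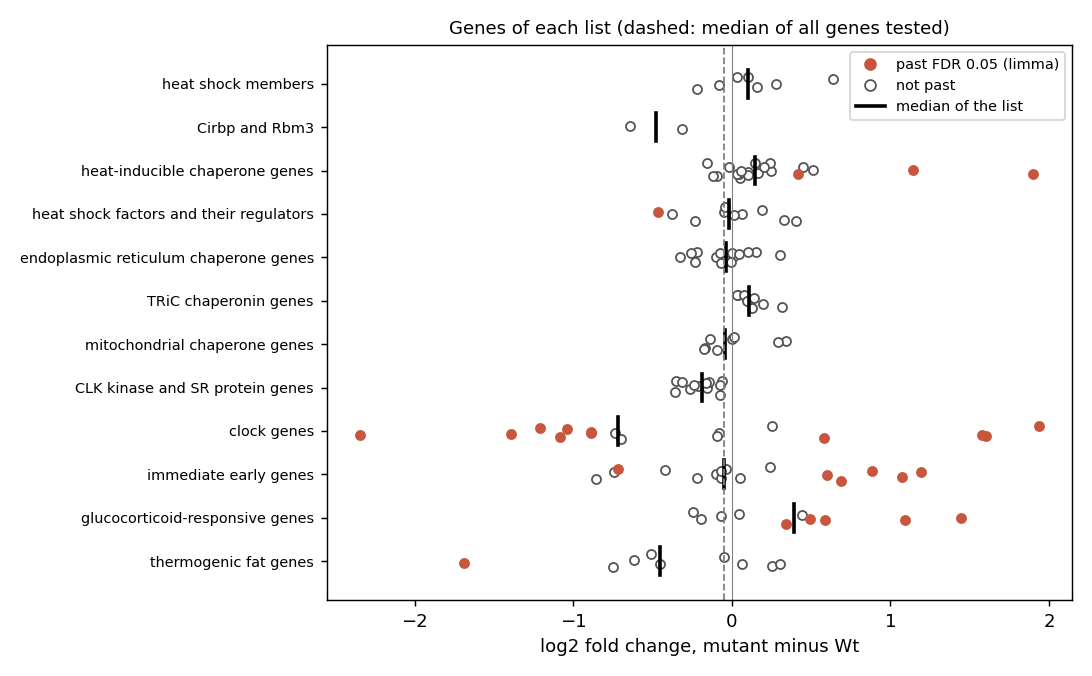
Log2 fold change, mutant minus Wt, of the 9 members and of every tested gene of 10 further lists, where filled red points passed an FDR of 0.05 by limma, open points did not, and black bars are medians. Calls are frequent among clock, immediate early and glucocorticoid-responsive genes and few among chaperone genes.

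The heat shock and cold-inducible genes also follow the time of day, and the clock genes themselves differed strongly. Of 16 clock genes, 4 rose and 7 fell, where 8.11% of all genes passed in either direction. Without single mice 3 to 4 rose and 5 to 8 fell. *Dbp*, an output gene driven by CLOCK and BMAL1, was at 121, 113 and 110 normalized CPM in Wt and fell to 25.6, 18.9 and 22.5 in mutant mice (log2 fold change -2.34, SE 0.12, adjusted p = 0.00122 by limma). *Npas2*, *Nfil3* and *Arntl*, whose peaks are opposite to that of *Dbp*, rose by log2 fold changes of 1.93, 1.61 and 1.58. *Sphk2* overlaps 539 exonic bases of *Dbp* on the opposite strand. In comparison, *Rbm3* and *Cirbp* differed by -0.64 and -0.32. Since no time of collection is given in the labels, genotype and a difference in collection time cannot be told apart.

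Genes that respond to acute stimuli showed calls as well. Of 16 immediate early genes, 5 rose and 1 fell, where 8.11% of all genes passed in either direction. Without single mice 1 to 4 rose, the fewest without Wt mouse 2 (1) and without Wt mouse 1, Wt mouse 3 or mutant mouse 2 (2 each), and *Jund* was lost in 7 of 17 alternatives, library size only included. With all 6 mice, *Fosb*, *Egr1* and *Fos* were higher by 1.19, 1.07 and 0.88 on the log2 scale, and *Jund*, of which *Gm11175* overlaps 52.6% on the opposite strand, was at -0.72. Of 10 glucocorticoid-responsive genes, 5 rose and none fell, against the same 8.11% of all genes, with *Cdkn1a*, *Errfi1*, *Tsc22d3* and *Sgk1* at 1.45, 1.09, 0.59 and 0.49 on the log2 scale. The count was 3 without any single mouse and with both other filters, and *Sgk1* was lost under 8 of 17 alternatives. Of 9 tested thermogenic fat genes 1 fell, where 8.11% of all genes passed in either direction. At an unadjusted p under 0.05 limma gave 5 of the 9, against 24.2% of all genes. The median log2 fold change of these 9 was -0.46. *Ucp1*, which uncouples respiration in brown and beige adipocytes, was at 15.5, 7.39 and 15.3 normalized CPM in Wt and at 3.46, 3.23 and 3.51 in mutant mice (log2 fold change -1.69, SE 0.29, adjusted p = 0.0187 by limma). Its call was lost under 4 of 17 alternatives, those without Wt mouse 1, Wt mouse 3, mutant mouse 2 or mutant mouse 3.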

How the data were processed

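RNA-seq of iWAT from 3 Wt and 3 mutant mice, 1 library per mouse, was analysed, with genotype and mouse number taken from the labels. Each deposited value is a normalized signal of 1 gene in 1 mouse, which the authors had expressed in CPM and scaled by sample factors (0.962 to 1.109). The submitters' processing notes name Bowtie2 2.1.0, RSEM 1.2.15, edgeR and mm10, without their roles. Filters, the use of strand and the handling of reads with several matches are not given in the sources used here. Dividing by the value of 1 read gave whole reads (within 0.1) for 100% of values. As the tables hold normalized values and not counts, genotypes were compared with limma 3.58.1 (R 4.3.3) with trend on log2(value + 0.5), a scale that understates changes of low genes, over genes kept by filterByExpr of edgeR 4.0.16, with Benjamini-Hochberg adjustment. On the recovered reads, the edgeR quasi-likelihood test called 1250 genes and DESeq2 1.42.0 called 2118, against 1368 by limma. The scripts were tested on simulated data. Reads differed between mice of 1 genotype beyond sampling noise, and p-values measure the spread between single mice. Positions and exon lengths are from GENCODE M21 on GRCm38, the assembly of mm10, and promoters from RefSeq. The members and lists were chosen with earlier results of these data known. All 9 members were named, together with *Hsf1* and *Hsf2*, at most the 4 largest changes past FDR 0.05 of each list, and the genes most like each pattern, of which 5 are given for the heat shock mean and 3 for the cold-inducible mean, as 1 result is not reported here. TMM scaling and leaving out both mice numbered 1 were chosen after seeing the data. Alternatives were otherwise another pseudocount, filter, scaling or test, FDR 0.1, a replicate block, each mouse left out and the sum of *Hspa1a* and *Hspa1b*.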

Additional observations from a re-analysis of the deposited data

How the results depend on the processing

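The number of members past FDR 0.05 was 0 in the main comparison and 0 under the other pseudocounts, filters, scalings (TMM included) and edgeR. It was 1 with the DESeq2 Wald test (*Rbm3*), 1 at FDR 0.1 (*Rbm3*), and 2 without both mice numbered 1 (*Rbm3* and *Hspb1*, the latter with an adjusted p of 0.0219 by limma). Leaving out single mice gave 0 to 1, the 1 being *Hspb1* without Wt mouse 1. A fit with a replicate block for mouse number gave 3 (*Rbm3*, *Cirbp* and *Hspb1*, adjusted p = 0.00754, 0.0188 and 0.0382 by limma). Mice of the same number correlated at r = 0.71, 0.01 and 0.55 in their deviations from the genotype means, and Wt mice 2 and 3 correlated best with mutant mice 3 and 2, so the numbers were not taken to pair the mice. Of 154 values of members under alternatives, 152 kept their direction. The 2 reversals were those of *Hspa1b*, which ranged from -0.13 to 0.17 when single mice were left out. The 27 genes of the pathway lists that passed kept their direction under all alternatives, and 12 of them passed under each. Over all genes, 1368 calls became 598 with at least 10 reads in every mouse, 2118 with DESeq2, 4063 with the replicate block, 2326 without both mice numbered 1 and 545 to 1043 without single mice. The causes were not tested. Counting error limits mainly *Hspa1a* and *Hspa1b*, with 45 to 88 reads per mouse.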
